A study of Mus musculus with 10 samples.

Results

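Renal phosphate transport and vitamin D metabolism were followed through 9 genes: the sodium-phosphate cotransporters Slc34a1, Slc34a3 and Slc20a2, the vitamin D hydroxylases Cyp27b1 and Cyp24a1, the vitamin D receptor Vdr, and the hormone receptor genes Kl, Fgfr1 and Pth1r. They were chosen by name, with earlier results of these data known, and all 9 were found among the 55952 genes of the deposited expression table. Bulk RNA sequencing of kidney compared C57BL/6 mice, an inbred laboratory strain, kept at 400 m (control, n = 5 libraries) with C57BL/6 mice kept at 4200 m (hypoxia, n = 5), each for 30 days. The labels name no other agent or genetic change and give neither age nor sex. Each group had its own site, so altitude and housing cannot be told apart, and nothing states that each library came from a separate mouse, and p-values therefore reflect only how these libraries vary. The extraction text speaks of retinas, whereas all samples are labelled kidney: 12 proximal tubule markers summed to at least 1376 FPKM (fragments scaled to gene length and library depth) in each library, and 5 retina markers to at most 0.656 FPKM, with Rcvrn and Crx at 0 throughout.

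The kidney sets the body's phosphate level mainly in the proximal tubule, where cotransporters in the brush border reclaim filtered phosphate together with sodium. Parathyroid hormone, through the receptor encoded by Pth1r, and the bone hormone FGF23, through FGF receptors with the co-receptor Klotho (Kl), remove these transporters from the membrane. The same tubule makes the active hormone calcitriol with the enzyme of Cyp27b1 and destroys it with the enzyme of Cyp24a1. Calcitriol acts through the receptor encoded by Vdr, which pairs with retinoid X receptors, induces Cyp24a1 and represses Cyp27b1, so the 2 enzymes usually answer in opposite directions.

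RefSeq promoter windows (250 bases before to 50 after a gene's start, GRCm38.p6) were matched for 6 of the 9 genes. Those of Vdr and Cyp27b1 are shown because Vdr had the largest fall among the 9 and Cyp27b1 the largest difference upward, which did not pass the test. They run 5′ to 3′ along the gene, Vdr at chr15:97908247-97908546 (minus strand, at a RefSeq start inside the gene's span in the table) and Cyp27b1 at chr10:127047996-127048295 (plus strand). Capitals mark matches, on either strand, to hexamers that nuclear receptors of this class can read or to the core read by hypoxia-inducible factors. The hexamers searched were AGGTCA along with AGGTGA, then AGTTCA along with AGTTGA, next GGGTCA along with GGGTGA, and lastly GGTTCA along with GGTTGA. The core was searched as ACGTG or else as GCGTG.
Vdr: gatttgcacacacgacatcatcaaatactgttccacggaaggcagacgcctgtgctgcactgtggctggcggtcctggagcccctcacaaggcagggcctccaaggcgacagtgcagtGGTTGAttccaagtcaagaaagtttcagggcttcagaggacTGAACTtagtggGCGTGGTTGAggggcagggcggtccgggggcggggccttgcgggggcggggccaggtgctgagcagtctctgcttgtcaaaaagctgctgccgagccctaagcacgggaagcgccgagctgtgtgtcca
Cyp27b1: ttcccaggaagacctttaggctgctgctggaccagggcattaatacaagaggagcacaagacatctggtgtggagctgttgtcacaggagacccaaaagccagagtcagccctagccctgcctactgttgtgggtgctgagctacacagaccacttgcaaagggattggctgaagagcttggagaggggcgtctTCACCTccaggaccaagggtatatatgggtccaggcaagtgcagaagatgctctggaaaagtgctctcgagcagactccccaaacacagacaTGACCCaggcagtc

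The Vdr window held 3 hexamer matches and 1 match to the hypoxia core, which shares its last base with the third hexamer, and the Cyp27b1 window held 2 hexamers and no core. Such matches are common: 66.7% of 32851 promoter windows held at least 1 of the hexamers and 43.8% a core. The arrangement best known for the vitamin D receptor, 2 of the hexamers in the same direction with 3 bases between them, was present in 0.256% of the windows and in neither of those printed. A match describes letters in a window and says nothing of binding.

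The libraries held 16561672 to 17845464 reads assigned to genes, as recovered from the deposited values, and the 9 genes rested on 105 (Cyp27b1) to 90586 (Slc34a1) reads per library. Hypoxia replicates 4 and 5 stood apart. Summed markers of the adrenal cortex (7 genes) reached 1060 FPKM and of fat cells (5 genes) 608 FPKM in hypoxia replicate 4, while the controls and hypoxia replicates 1 to 3 did not exceed 1.68 and 133.6 FPKM. In hypoxia replicate 5, B cell markers (5 genes) summed to 447 FPKM and macrophage markers (5 genes) to 244 FPKM, with maxima of 5.49 and 54.4 FPKM among the same 8 libraries. The proximal tubule markers summed to 1376 FPKM in hypoxia replicate 5, to between 2533 and 2736 FPKM in the other hypoxia libraries and to between 2440 and 3282 FPKM in controls, and 0 of these 12 markers passed the gene test with limma. Without hypoxia replicates 4 and 5, Slc5a2 was lower (log2 fold change -0.62, adjusted p = 0.0401) and Slc7a9 higher (0.59, 0.0149) among them. Tests of the 9 genes and of those named from the pathway lists are therefore also given without hypoxia replicates 4 and 5.

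Among the 9 genes, 7 had lower and 2 (Cyp27b1 and Fgfr1) higher mean values in hypoxia. Only Vdr and Slc20a2 passed the test, both lower (limma on log2(FPKM + 0.5), Benjamini-Hochberg adjusted p under 0.05 over all 15264 genes tested), against 11.5% of all tested genes called in either direction, 3.66% higher and 7.79% lower. The median log2 fold change of the 9 was -0.44, against 0.012 over all tested genes. Without hypoxia replicates 4 and 5 the same 2 genes passed and the median was -0.29, with 12.3% of 14724 genes called, 4.53% higher and 7.75% lower. Vdr and Pth1r were the 2 whose groups did not overlap, hypoxia below control in each, against 14.2% of tested genes without overlap (5.68% higher, 8.54% lower). Without hypoxia replicates 4 and 5, Slc20a2, Vdr and Pth1r lay below and Cyp27b1 and Fgfr1 above all controls, against 21.5% of genes without overlap (9.73% higher, 11.8% lower).

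**Figure D1:**
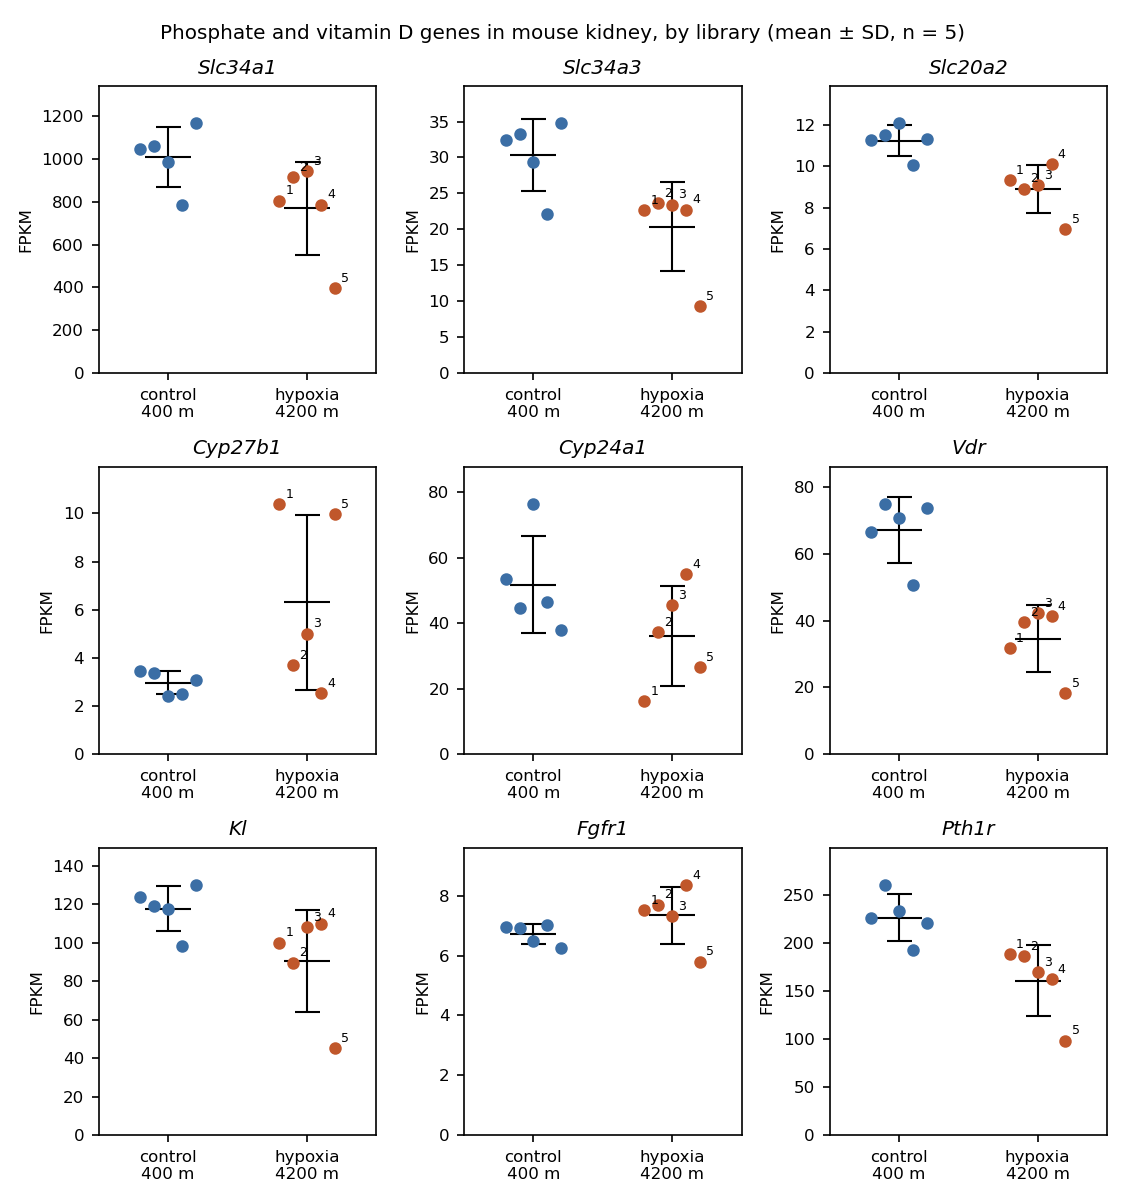
FPKM (vertical axes, each from 0) of the 9 genes in every library, control on the left and hypoxia on the right of each panel, with points for libraries, bars for mean ± SD (n = 5) and replicate numbers beside the hypoxia points. The hypoxia points of Vdr (18.2 to 42.1 FPKM) and Pth1r (98.5 to 188.7 FPKM) lie below all controls, and hypoxia replicate 5 is the lowest library of the group in 7 panels.

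Vdr, the nuclear receptor through which calcitriol acts, had a mean of 67.3 ± 9.88 FPKM under control conditions and fell to 34.5 ± 10.04 FPKM at altitude (SD, n = 5 each). In controls it was at 66.5, 74.8, 70.8, 50.5 and 73.6 FPKM in replicates 1 to 5, and in hypoxia at 31.7, 39.4, 42.1, 41.3 and 18.2 FPKM. Each hypoxia library lay below the lowest control, replicate 4. The log2 fold change was -0.998 (SE 0.221, 95% interval -1.49 to -0.51, limma adjusted p = 0.0188), and -0.82 without hypoxia replicates 4 and 5 (adjusted p = 0.00872). The call was lost without control replicate 2 (log2 fold change -0.96, adjusted p = 0.0532) and held without each other library. In bulk tissue, fewer cells that express a gene and less of its RNA per cell cannot be told apart. The gene (ENSMUSG00000022479) lies on chromosome 15 from 97854425 to 97910630 on the minus strand of GRCm38, and no other gene of the table overlaps it. Of late proximal tubule markers, 5 of 6 were called lower, with all libraries and without hypoxia replicates 4 and 5, against 7.79% and 7.75% of all tested genes. The other, Slc7a13, was the most abundant of the 6 in controls (459 FPKM) and was not called (log2 fold change -0.21, limma adjusted p = 0.537). Without hypoxia replicates 4 and 5 it was at 0.003 (adjusted p = 0.993). The 6 markers summed to 665 to 1018 FPKM in controls and 405 to 762 FPKM in hypoxia, and their part in the fall of Vdr was not tested.

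The vitamin D hydroxylases differed in opposite directions in their group means, and neither passed the test. Cyp27b1, which activates vitamin D, was at 3.43, 3.38, 2.43, 2.48 and 3.06 FPKM in control replicates 1 to 5 and at 10.4, 3.70, 5.01, 2.52 and 9.97 FPKM in hypoxia replicates 1 to 5. Hypoxia replicates 1, 2, 3 and 5 were above all controls, while hypoxia replicate 4 lay within their range, so the groups overlapped. Control libraries averaged 2.96 ± 0.482 FPKM and hypoxia libraries 6.31 ± 3.63 FPKM (a difference of 0.81 on the log2 scale, SE 0.330, 95% interval 0.083 to 1.54, limma adjusted p = 0.133). Without hypoxia replicates 4 and 5 the difference was 0.88 (adjusted p = 0.0687), with no overlap. Markers of macrophages, a cell type that can also express Cyp27b1, were raised in hypoxia replicate 5 (above), and their part in that library's 9.97 FPKM was not tested. The 5 macrophage markers summed to 38.0, 44.8, 52.0, 68.5 and 244 FPKM in hypoxia replicates 1 to 5 and to 42.0 to 54.4 FPKM in controls.

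Cyp24a1, which inactivates calcitriol, was at 53.3, 44.7, 76.2, 46.5 and 37.9 FPKM in control replicates 1 to 5 and at 16.1, 37.2, 45.4, 55.0 and 26.5 FPKM in hypoxia replicates 1 to 5. It was below all controls in hypoxia replicates 1, 2 and 5 and within their range in 3 and 4. The means of 51.7 ± 14.8 and 36.0 ± 15.3 FPKM (SD, n = 5) gave a log2 fold change of -0.59 (SE 0.309, 95% interval -1.28 to 0.089, limma adjusted p = 0.227), and -0.73 without hypoxia replicates 4 and 5 (adjusted p = 0.192). Without hypoxia replicate 1, which held the lowest value, it was -0.34.

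The hypoxia libraries with the most Cyp27b1, replicates 1 and 5, were those with the least Cyp24a1, and replicate 4 had the least Cyp27b1 and the most Cyp24a1. Per 1000 FPKM of summed proximal tubule markers, Cyp24a1 was at 6.12, 13.6, 16.6, 21.7 and 19.2 in hypoxia replicates 1 to 5. On that scale replicate 5 was thus above the control mean (17.6). For each 100 FPKM of Cyp24a1 there were 64.5, 9.95, 11.03, 4.57 and 37.7 FPKM of Cyp27b1 in hypoxia replicates 1 to 5, against 3.19 to 8.08 in controls. Hypoxia replicate 4 was thus the one hypoxia library inside the control range of this ratio. The highest and lowest libraries differed 14.1-fold in hypoxia, 6.48-fold among hypoxia replicates 1 to 3 and 2.54-fold in controls. Since both genes were chosen together for this account, the ratio is given as a description without a test.

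**Figure D2:**
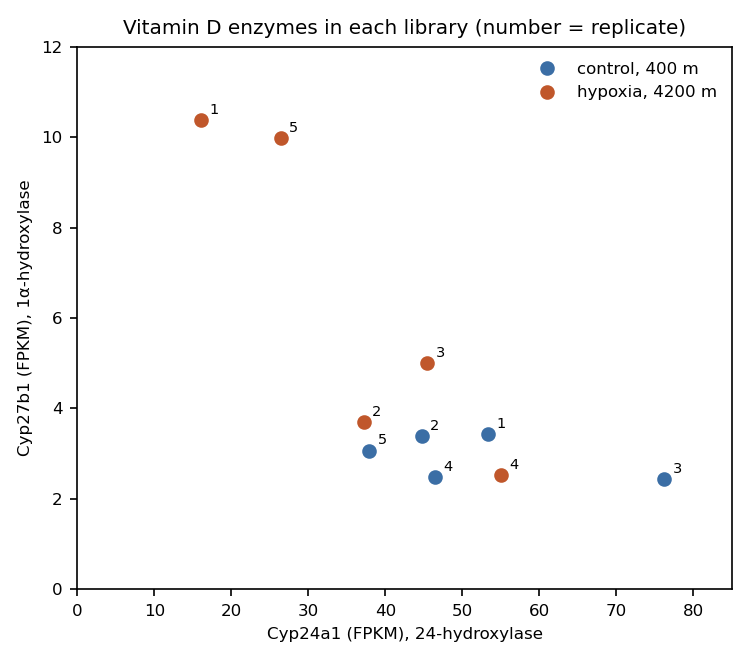
Cyp27b1 (vertical axis, FPKM) against Cyp24a1 (horizontal axis, FPKM), 1 point per library with its replicate number, blue for control and orange for hypoxia. Hypoxia replicates 1 and 5 lie apart at the upper left, with 10.4 and 9.97 FPKM of Cyp27b1, while hypoxia replicate 4 lies among the controls at 2.52 FPKM.

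Slc34a1 encodes NaPi-IIa, the main phosphate cotransporter of the brush border, and was the most abundant of the 9 genes on this per-length scale. In control replicates 1 to 5 it was at 1046, 1062, 984, 785 and 1166 FPKM, and in hypoxia replicates 1 to 5 at 806, 914, 942, 786 and 398 FPKM. The groups overlapped, and hypoxia replicate 5 was far below the other libraries. The means were 1009 ± 141 and 769 ± 218 FPKM (log2 fold change -0.44, SE 0.229, 95% interval -0.95 to 0.065, limma adjusted p = 0.227). Without hypoxia replicates 4 and 5 the difference was -0.18 (95% interval -0.46 to 0.11, adjusted p = 0.402). Without hypoxia replicate 5 alone it was -0.22.

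Slc34a3, the related cotransporter NaPi-IIc, was at 32.4, 33.3, 29.3, 22.2 and 34.7 FPKM in control replicates 1 to 5 and at 22.7, 23.7, 23.5, 22.8 and 9.28 FPKM in hypoxia replicates 1 to 5. Hypoxia replicates 1 to 4 lay close together, just above the lowest control, replicate 4. The log2 fold change was -0.62 (SE 0.247, limma adjusted p = 0.125). Without hypoxia replicates 4 and 5 it was -0.36 (adjusted p = 0.112). Slc34a1 exceeded Slc34a3 31.9- to 35.4-fold in controls and 34.6- to 42.9-fold in hypoxia, ranges that overlapped, and 35.5- to 40.2-fold in hypoxia replicates 1 to 3, a range above the controls.

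Slc20a2, a phosphate carrier of the other family (PiT-2), fell slightly, from 11.2 ± 0.737 to 8.89 ± 1.16 FPKM (SD, n = 5 each). Its values were 11.3, 11.5, 12.1, 10.1 and 11.3 FPKM in control replicates 1 to 5 and 9.33, 8.92, 9.10, 10.1 and 6.97 FPKM in hypoxia replicates 1 to 5. Only hypoxia replicate 4 reached the lowest control. The log2 fold change was -0.33 (SE 0.0941, 95% interval -0.54 to -0.12, limma adjusted p = 0.0471), and -0.29 without hypoxia replicates 4 and 5 (adjusted p = 0.0271). The call was lost without control replicates 1, 2, 3 or 5 or hypoxia replicates 1, 2 or 3, each left out alone (adjusted p = 0.0657 to 0.109), and after median-of-ratios scaling of the libraries (0.0506). Smim19, on the opposite strand, shares 95 exon bases with it, 1.53% of its exons, and averaged 16.9 FPKM (controls) and 18.4 FPKM (hypoxia), so reads in that stretch are uncertain. Slc34a1 made up 95.1 to 95.7% of the summed FPKM of Slc34a1, Slc34a2, Slc34a3, Slc20a1 and Slc20a2 in controls and 94.2 to 96.2% in hypoxia.

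Pth1r, the parathyroid hormone receptor of the tubule, was at 226, 260.2, 234, 192 and 221 FPKM in control replicates 1 to 5 and at 188.7, 186, 169.7, 162 and 98.5 FPKM in hypoxia replicates 1 to 5. The groups did not overlap, though hypoxia replicates 1 and 2 came close to control replicate 4. The log2 fold change of -0.52 (SE 0.175, 95% interval -0.91 to -0.14) missed the threshold (limma adjusted p = 0.0788), as did -0.31 without hypoxia replicates 4 and 5 (adjusted p = 0.0693). Without hypoxia replicate 5 alone it passed, at -0.35 (adjusted p = 0.0249).

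Kl, the co-receptor that lets FGF23 act on the kidney, was at 123.7, 119.3, 117.5, 98.3 and 129.7 FPKM in control replicates 1 to 5 and at 100.1, 89.6, 107.9, 109.9 and 45.3 FPKM in hypoxia replicates 1 to 5. The groups overlapped, since 3 hypoxia libraries exceeded control replicate 4. The log2 fold change was -0.44 (SE 0.222, 95% interval -0.93 to 0.055, limma adjusted p = 0.218), and -0.24 without hypoxia replicates 4 and 5 (adjusted p = 0.153). Fgfr1, the receptor that pairs with Klotho, averaged 6.73 ± 0.338 FPKM across controls and 7.34 ± 0.944 FPKM across hypoxia libraries (SD, n = 5), with a log2 fold change of 0.11 (SE 0.0896, 95% interval -0.089 to 0.31, adjusted p = 0.435). Without hypoxia replicates 4 and 5 the difference of Fgfr1 was 0.15 (95% interval 0.010 to 0.29, limma adjusted p = 0.150). Fgfr1 was above all controls in hypoxia replicates 1 to 4 (7.32 to 8.34 FPKM) and below them in hypoxia replicate 5 (5.79 FPKM). The highest value was that of hypoxia replicate 4, the library with raised fat and adrenal markers, whose part in it was not tested.

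In controls the 9 genes ranked, from the highest FPKM, Slc34a1, Pth1r, Kl, Vdr, Cyp24a1, Slc34a3, Slc20a2, Fgfr1 and Cyp27b1. Among neighbours in this order, the control libraries of Vdr and Cyp24a1 alone overlapped in range. In hypoxia the mean of Cyp24a1 (36.0 FPKM) stood above that of Vdr (34.5 FPKM), again with overlap. Slc34a1 and Pth1r were separate there, as were Kl and Vdr, neighbours in the control order. Kl (lowest 45.3 FPKM) overlapped Cyp24a1 (highest 55.0 FPKM), its neighbour in hypoxia. The coefficient of variation between libraries was larger in hypoxia than in controls for all 9 genes, but without hypoxia replicates 4 and 5 this held for 2, Cyp27b1 (55.6% against 16.3%) and Cyp24a1 (46.0% against 28.5%). The other 7 then varied less than in controls, for example Slc34a3 (2.24% against 16.5%) and Vdr (14.3% against 14.7%).

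Hypoxia replicate 5 carried 0.514 times the proximal tubule marker sum of the median of hypoxia replicates 1 to 4. Markers of podocytes (0.528), connecting tubule and principal cells (0.648), distal convoluted tubule (0.660) and thick ascending limb (0.723) were lowered there too. Those of late proximal tubule were at 0.770, of endothelium at 0.958, of fibroblasts at 1.06 and of intercalated cells at 1.26 times that median. The intercalated cell sum rested on Slc4a1, at 88.3 FPKM in hypoxia replicate 5 and 8.87 to 13.2 FPKM in hypoxia replicates 1 to 4. The rest of that list, Foxi1, Atp6v1g3, Slc26a4 and Aqp6, was lowered in hypoxia replicate 5. These genes were at 0.284, 0.371, 0.398 and 0.801 times their medians in hypoxia replicates 1 to 4. Slc34a3, Kl, Vdr, Slc34a1 and Pth1r were lowered in that library about as much as the proximal tubule and podocyte sums. They were at 0.402, 0.435, 0.450, 0.463 and 0.553 times the median of hypoxia replicates 1 to 4. Cyp24a1, Slc20a2 and Fgfr1 were at 0.641, 0.756 and 0.761 times it, and Cyp27b1 at 2.29 times. To see the genes against these markers, each library was also scaled to its proximal tubule marker sum, which moved the median log2 fold change of all tested genes by 0.30, to 0.31. Values on this scale are therefore also given relative to that median gene.

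On that scale Vdr remained lower. Per 1000 FPKM of proximal tubule markers it was at 20.7 to 24.3 in controls and 12.1 to 16.3 in hypoxia, with no overlap (log2 fold change -0.66, SE 0.112, limma adjusted p = 0.0120, against 2.77% of genes called on this scale, 1.93% higher and 0.845% lower). The scaled difference of Vdr was -0.69 without hypoxia replicates 4 and 5 (adjusted p = 0.00358). Slc34a1 was at 338 ± 13.4 in controls and 317 ± 22.4 in hypoxia per 1000 (log2 fold change -0.094, 95% interval -0.26 to 0.074, adjusted p = 0.396). Slc34a3 was at 9.09 to 10.8 in controls and 6.74 to 8.98 in hypoxia per 1000, without overlap, but did not pass (-0.29, adjusted p = 0.191). The share of all tested genes without overlap on this scale was not counted. Cyp24a1 had a scaled difference of -0.25 (adjusted p = 0.574), with 19.2 per 1000 in hypoxia replicate 5 and 17.6 ± 5.23 in controls, and of -0.60 without hypoxia replicates 4 and 5 (0.355). Cyp27b1 had a difference of 1.13 (adjusted p = 0.167), or 1.002 without those libraries (0.0647). For Slc20a2, Pth1r, Kl and Fgfr1 the values were 0.00055, -0.18, -0.093 and 0.43 (adjusted p = 0.998, 0.250, 0.515 and 0.165), and without those libraries -0.16, -0.18, -0.11 and 0.28.

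The scaling divides all genes of a library by the same factor, so distances to the median of all tested genes can hardly change. They are given as a description and do not test the part of tubule content. Vdr had a log2 fold change minus that of the median gene of -1.01 before the scaling and -0.97 after. For Slc20a2 this distance was -0.34 before and -0.31 after, beside the common shift of 0.30. The distances of Slc34a1, Slc34a3, Cyp24a1, Kl and Pth1r after the scaling were -0.41, -0.60, -0.56, -0.40 and -0.49, and those of Cyp27b1 and Fgfr1 were 0.82 and 0.12.

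**Figure D3:**
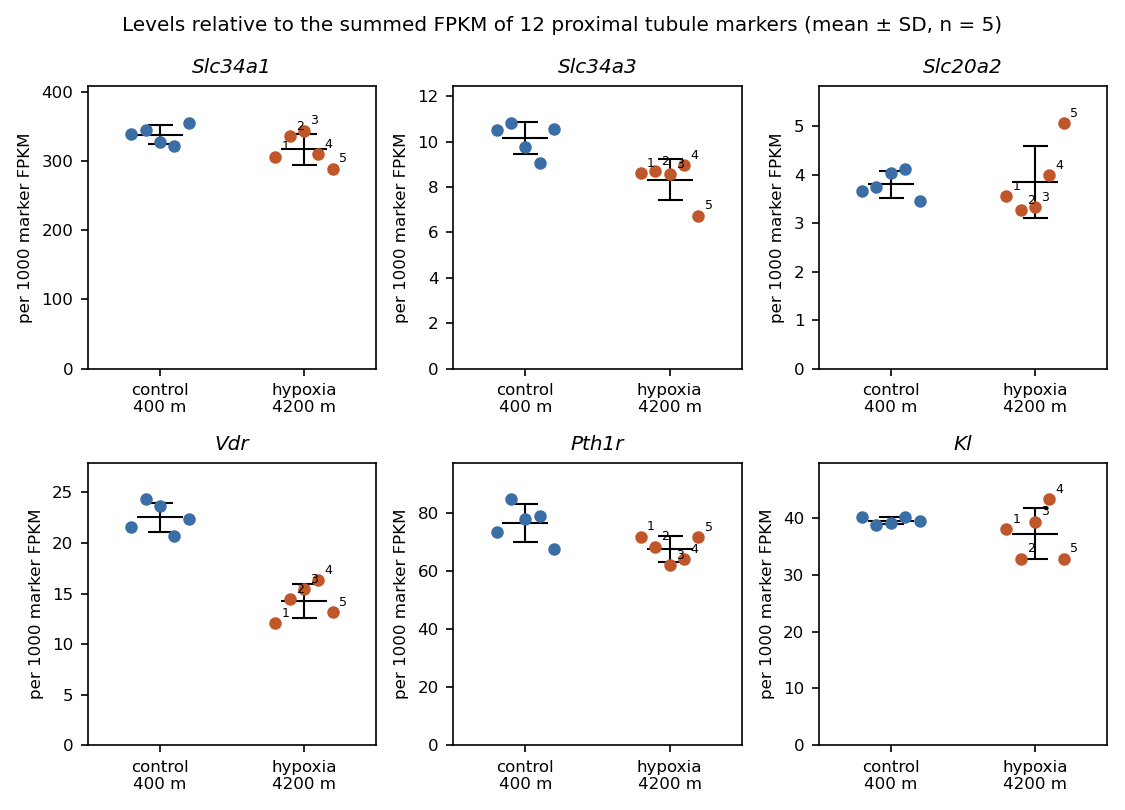
Level of 6 genes per 1000 FPKM of the summed 12 proximal tubule markers (vertical axes, from 0) in each control and hypoxia library, with bars for mean ± SD (n = 5) and replicate numbers beside the hypoxia points. The groups stay apart for Vdr (12.1 to 16.3 in hypoxia, 20.7 to 24.3 in controls) and narrowly for Slc34a3 (6.74 to 8.98 and 9.09 to 10.8). Those of Slc34a1, Slc20a2, Pth1r and Kl overlap. The share of all tested genes without overlap on this scale was not counted.

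**Figure D4:**
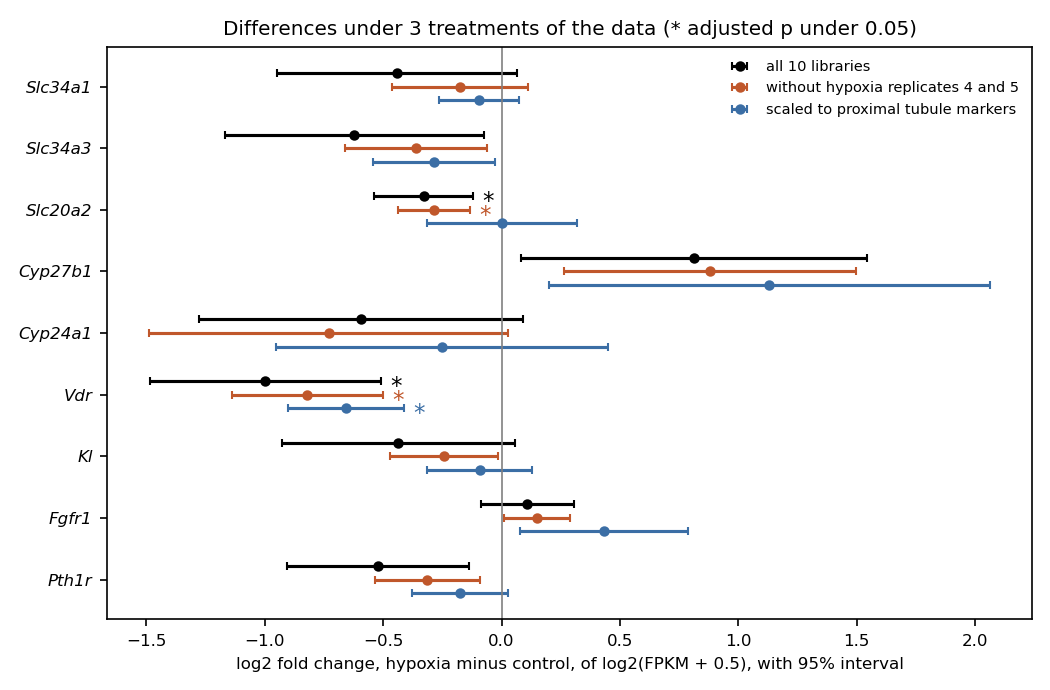
Log2 fold change, hypoxia minus control, of log2(FPKM + 0.5) for the 9 genes (horizontal axis, dots with 95% intervals) with all 10 libraries, without hypoxia replicates 4 and 5, and after scaling to proximal tubule markers, with stars for adjusted p under 0.05. Vdr is starred in all of them (-0.998, -0.82 and -0.66), and Slc20a2 loses its star after the scaling (0.00055), where the median of all tested genes lies at 0.31.

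Further genes of the pathway were read from 5 lists, of which 62 genes were tested and 9 passed, 3 higher and 6 lower. These are 14.5% of the 62 (4.84% higher, 9.68% lower), near the 11.5% of all tested genes (3.66% higher, 7.79% lower). Among 13 tested regulators of phosphate transport and related genes, 1 was higher and 2 lower, with a median log2 fold change of -0.16. Without hypoxia replicates 4 and 5, 1 was higher and 3 lower, against 4.53% and 7.75% of all tested genes. The gene added was Slc20a1 (-0.61, limma adjusted p = 0.00596), at 3.62 to 4.08 FPKM against 5.61 to 7.43 FPKM in controls. With all libraries it did not pass (-0.45, adjusted p = 0.122), hypoxia replicate 5 being at 7.46 FPKM. After scaling to proximal tubule markers it was -0.13 (0.788), and -0.49 (0.0488) without those libraries. Pdzk1, a scaffold that holds NaPi-IIa and other carriers at the brush border, fell from 167.8 ± 19.0 to 93.0 ± 32.8 FPKM (log2 fold change -0.92, limma adjusted p = 0.0314). Its call held after scaling to proximal tubule markers (-0.58, adjusted p = 0.0465) and without hypoxia replicates 4 and 5 (-0.56, 0.0235). It was lost without control replicates 1, 2, 3 or 5 or hypoxia replicates 3 or 4, each alone (0.0502 to 0.0798). Fam20c, the kinase that phosphorylates FGF23 and other secreted proteins, fell from 11.6 ± 1.06 to 7.34 ± 1.48 FPKM (-0.64, adjusted p = 0.0141), with -0.46 without hypoxia replicates 4 and 5 (adjusted p = 0.0161). Its call was lost after scaling to proximal tubule markers (-0.31, adjusted p = 0.236, or -0.62 relative to the median gene). Enpp1, which makes the mineralization inhibitor pyrophosphate, rose from 4.69 ± 0.494 to 6.71 ± 0.766 FPKM (0.47, adjusted p = 0.0126), with 0.52 without hypoxia replicates 4 and 5 (0.0124) and 0.79 after that scaling (0.0441, or 0.48 relative to the median gene).

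Among 13 tested genes of vitamin D uptake, activation and receptor partners, 1 was higher and 1 lower, with a median of -0.072. Gc, the vitamin D binding protein of plasma, was at 19.9, 18.3, 22.3, 13.6 and 18.6 FPKM in control replicates 1 to 5 and at 66.7, 60.7, 100.4, 67.7 and 51.6 FPKM in hypoxia replicates 1 to 5. It rose in each hypoxia library above all controls (log2 fold change 1.86, SE 0.176, limma adjusted p = 0.000348), or by 1.99 without hypoxia replicates 4 and 5 (adjusted p = 0.000697). Rxrb, a retinoid X receptor that partners the vitamin D receptor, fell from 11.7 ± 0.649 to 8.93 ± 0.578 FPKM (-0.37, adjusted p = 0.00741), with -0.34 without hypoxia replicates 4 and 5 (0.0136). After scaling to proximal tubule markers its value was -0.036 (adjusted p = 0.905), or -0.35 relative to the median gene. Lrp2, which encodes megalin, the receptor that takes the binding protein into tubule cells, was at 143.8 ± 11.98 and 138.4 ± 40.1 FPKM (-0.11, adjusted p = 0.745). It was named after its values were seen, and its direction turned without hypoxia replicates 4 and 5 (0.10, adjusted p = 0.619) and after the scaling (0.24, 0.227, or -0.074 relative to the median gene).

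In FGF and Klotho signalling, 1 of 12 tested genes was higher and 1 lower (median -0.21). Fgfr3, another FGF receptor, fell from 7.23 ± 0.967 to 5.37 ± 0.543 FPKM (log2 fold change -0.39, limma adjusted p = 0.0333), and Frs2, the adaptor that carries FGF receptor signals, rose from 4.61 ± 0.258 to 5.50 ± 0.280 FPKM (0.23, adjusted p = 0.0393). Both calls were lost without hypoxia replicates 4 and 5 (adjusted p = 0.0762 and 0.0745). They were also lost after scaling to proximal tubule markers, at -0.073 for Fgfr3 and 0.55 for Frs2 (limma adjusted p = 0.740 and 0.158). Relative to the median gene these were -0.38 and 0.24. With single libraries left out, that of Fgfr3 was lost without control replicates 1, 2, 3 or 5 or hypoxia replicates 1, 3 or 4 (0.0520 to 0.0795), and that of Frs2 without control replicates 1 to 4 or hypoxia replicates 1, 3 or 4 (0.0731 to 0.0967). Fgf23 itself had 0 reads in all libraries.

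In parathyroid hormone signalling, 0 of 13 tested genes were higher and 2 lower (median -0.21). Without hypoxia replicates 4 and 5, 0 were higher and 3 lower, against 4.53% and 7.75% of all tested genes. The gene added was Arrb1 (-0.44, limma adjusted p = 0.0100). With all libraries Arrb1 did not pass (-0.33, adjusted p = 0.205). It was at 11.6 FPKM in hypoxia replicate 5 and at 5.68 to 6.78 FPKM in the other hypoxia libraries. Prkaca, a catalytic subunit of protein kinase A, fell from 40.3 ± 1.94 to 31.0 ± 4.05 FPKM (log2 fold change -0.38, limma adjusted p = 0.0255), with -0.31 without hypoxia replicates 4 and 5 (0.0420). After scaling to proximal tubule markers it was -0.041 (adjusted p = 0.848), or -0.35 relative to the median gene. The call was lost without control replicates 1, 2, 3 or 5 or hypoxia replicates 1, 3 or 4, each alone (0.0508 to 0.0658). Gnas, the stimulatory G protein subunit, fell from 3.78 ± 0.201 to 2.44 ± 0.581 FPKM (-0.56, adjusted p = 0.0189), with -0.42 without hypoxia replicates 4 and 5 (0.0468). Its call was lost without control replicate 2 (0.0505), without control replicate 3 (0.05003) and after scaling to proximal tubule markers (-0.27, 0.325, or -0.58 relative to the median gene). Its level is uncertain, since its locus holds overlapping transcripts between which reads could be split. Of 11 tested renal calcium transport genes, 0 passed with limma (median -0.11), and the most abundant, Klk1 (tissue kallikrein) and S100g (a calcium-binding protein regulated by vitamin D), had log2 fold changes of -0.38 and 0.32 (adjusted p = 0.200 and 0.273), and of -0.25 and 0.40 without hypoxia replicates 4 and 5 (0.202 and 0.140). S100g was called higher after scaling to proximal tubule markers (0.67, adjusted p = 0.0220, or 0.36 relative to the median gene).

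**Figure D5:**
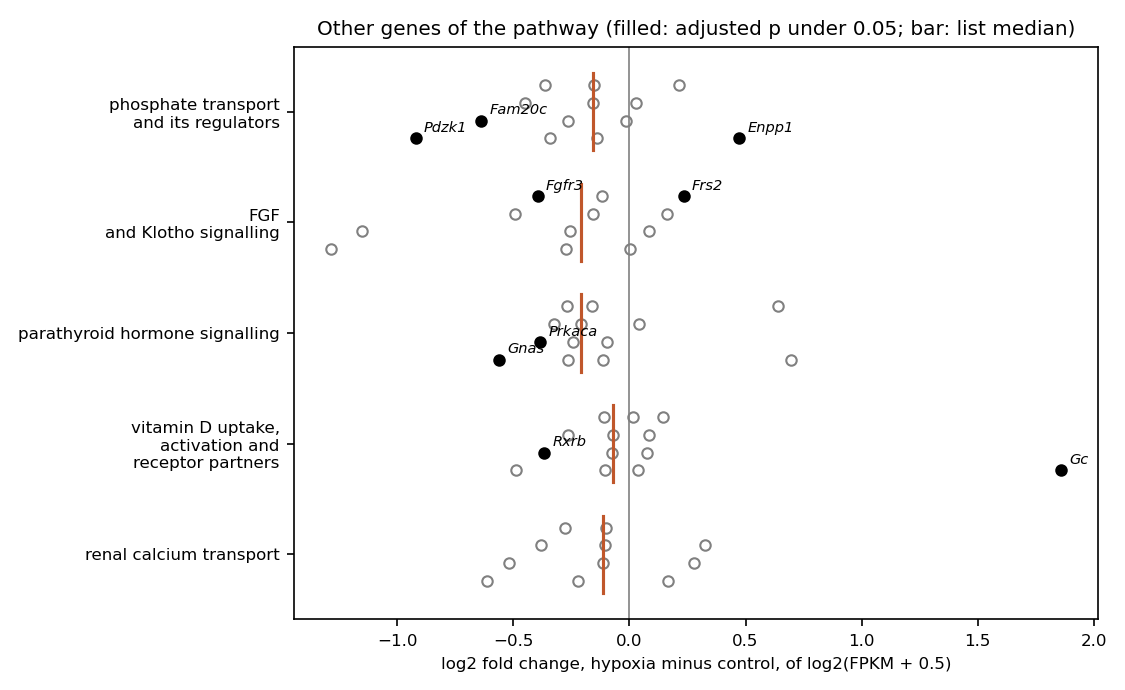
Log2 fold change, hypoxia minus control, of log2(FPKM + 0.5) (horizontal axis) for the tested genes of 5 pathway lists (rows), filled and named where the adjusted p was under 0.05, with a bar at each list's median. Gc stands out at 1.86, and the list medians lie between -0.21 and -0.072.

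The protein-coding genes whose standardised profile over the 10 libraries was most like that of Vdr, by root mean square difference among 9951 candidates with a mean of at least 2 FPKM, were Mrps2 (0.149), a mitochondrial ribosomal protein gene, Abca3 (0.171), a lipid transporter gene, and Grhpr (0.179), an enzyme gene of glyoxylate removal. Those most like Slc20a2 were Ube2m (0.143), D630045J12Rik (0.165) and Mrnip (0.180). Grhpr fell from 133.2 ± 12.8 to 73.0 ± 15.3 FPKM (SD, n = 5 each) and Abca3 from 68.1 ± 6.21 to 43.4 ± 8.82 FPKM, with log2 fold changes of -0.89 and -0.67. Mrps2 changed less (-0.28, limma adjusted p = 0.0459). Ube2m, D630045J12Rik and Mrnip had -0.28, -0.68 and -0.50 (adjusted p = 0.0521, 0.0398 and 0.0687). Standardised profiles leave out the size of a change.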

How the data were processed

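The authors deposited 1 table of FPKM per gene and library. HISAT2 2.0.5 and the human build hg38 are listed per the submitters' processing notes. The identifiers are those of mouse genes: 55141 occur in a GRCm38 annotation, 99.4% of them with the same coordinates, so GRCm38 is given. For counting, tool, strand setting and annotation were not given in the sources used here. Gene length, deposited in the same table as another unit (other), turned FPKM into whole reads (100% of values within 0.05 of a whole number), which were used for depth and for 1 alternative.

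The 15264 genes averaging 0.5 FPKM or more were tested on log2(FPKM + 0.5), which understates changes of low genes, with limma 3.58.1 in R 4.3.3 (group alone in the model, eBayes trend and robust options, two-sided, Benjamini-Hochberg over all tested genes). The test was tried on simulated reads. All 9 genes passed the filter. Treatment labels gave the groups, titles the replicate numbers. Of 179 listed genes, 178 were found by symbol (Ankh was not).

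The 9 genes and the lists were chosen with earlier results of these data known. Genes named were these 9; of each list up to 4 past the threshold with the smallest p, or the 2 most abundant where none passed; and for up to 3 called genes the 3 nearest profiles. Of the 17 cell type and tissue lists, those whose level bears on a result are given. No 2 libraries agreed within sampling noise. Figures used matplotlib 3.10.9.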

Additional observations from a re-analysis of the deposited data

Results flagged for a closer look

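In 2 of 40 groups of 5 libraries examined (20 genes, both conditions), 1 library lay apart from the others by more than 0.71 of the group's range, a limit that chance passes in about 1 of 20 groups. Slc34a1 in hypoxia replicate 5 was at 398 FPKM, with the nearest hypoxia library at 786 FPKM and the highest at 942 FPKM. Slc34a3 in hypoxia replicate 5 was at 9.28 FPKM, with the other hypoxia libraries between 22.7 and 23.7 FPKM. The proximal tubule marker sum was lowest in the same library, and its part in these values was not tested.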

How the results depend on the processing

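The 3 counts of genes past the threshold and the log2 fold changes of the 9 genes and of 11 genes named from the lists were recomputed under 21 other settings and 2 more added after seeing the data. Ratios between genes, marker lists, Lrp2, Slc20a1, Arrb1 and the nearest profiles were not. The 1748 genes past the threshold became 966 without a filter on low values, 423 after scaling to proximal tubule markers (294 higher and 129 lower, against 559 and 1189), 852 with that scaling and without hypoxia replicates 4 and 5 (added), and 824 to 2724 when each library was left out in turn. With limma voom on recovered reads 791 were higher and 923 lower. By the exact permutation test (two-sided) 0 genes passed, 4818 had an unadjusted p under 0.05, and there was a smallest adjusted p of 0.0558. Vdr and Pth1r, whose groups did not overlap, both had that value. With so few libraries per group the test could give no gene a smaller one, so it could call none. Group size alone thus did not fix its counts of 0, here and below for the 9 genes and the lists. No conclusion on the limma calls is drawn from them. Of the 9 genes, 2 passed as reported. The count was 1 (Vdr) without the filter, after median-of-ratios scaling, after proximal tubule scaling with or without hypoxia replicates 4 and 5, and with eBayes without trend or robust, 0 with the permutation test (5 at an unadjusted p under 0.05), and 0 to 3 with 1 library left out. Of the pathway lists, 9 genes passed as reported, 5 without the filter, 4 after proximal tubule scaling, 5 with that scaling and without hypoxia replicates 4 and 5, 0 with the permutation test (21 unadjusted), and 4 to 15 with 1 library left out. The direction of the 9 genes held under all alternatives except that of Slc20a2 after proximal tubule scaling (0.00055), which moved the median of all genes by 0.30. The log2 fold change of Vdr ranged from -1.10 to -0.66. With the replicate number as a block, 999 genes and 0 of the 9 passed (limma, 5 of the 9 at an unadjusted p under 0.05), with adjusted p = 0.0529 for Vdr. Libraries sharing a number correlated at -0.077 to 0.086 in their deviations from the group means, and 1 of 5 correlated best with its own number, so the numbers were not taken to pair the samples. Cyp27b1, with 105 to 468 reads, was the thinnest of the 9 genes.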
